A study of Mus musculus with 6 samples.

Results

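The genes described here are 41 genes of glucose and lactate transport, glycolysis, the lactate and pyruvate dehydrogenase branch, and glycogen metabolism. They were chosen by symbol from a count table of 55804 rows, and where a symbol had 2 rows (Aldoa) the row with more counts was used; the other row held 140 counts in total. Each of the 41 was found. Expression was measured by RNA sequencing of total RNA from C2C12, an established line of mouse skeletal muscle myoblasts that fuse into myotubes when serum is lowered. Both groups were grown in high-glucose medium and then held for 3 days in differentiation medium with 2% horse serum. The control group (Ctrl-gRNA, genotype given as WT) and the group in which CRISPR/Cas9 was directed at Prr33 (Prr33-gRNA, genotype given as PRR33 knocked down) had 3 libraries each. Whether each group was 1 line or several, and whether its libraries came from separate cultures, is not stated in the labels. The p-values then reflect only the spread among the libraries at hand, and this spread may be technical.

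Glycolysis splits glucose into pyruvate in the cytosol, and muscle cells turn part of that pyruvate into lactate or hand it to the mitochondria. Glycogen is the branched store of glucose that muscle builds when glucose is plentiful and breaks down when it contracts. In muscle the pathway is known for its tissue-specific isoforms: several steps are served both by a widely expressed gene and by one that is enriched in muscle.

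Total counts per library ran from 17006381 to 19471762. Levels are given as CPM, counts per unit of library size after trimmed mean of M-values (TMM) scaling, and at this depth a count of 3 corresponds to 0.150 to 0.182 CPM. A gene was called higher or lower when the edgeR quasi-likelihood test gave a Benjamini-Hochberg adjusted p below 0.05 over the 14651 genes that passed the filter on low counts. The targeted gene Prr33 was at 61.4, 59.96 and 54.3 CPM in Ctrl-gRNA and 43.1, 45.8 and 42.4 CPM in Prr33-gRNA. The groups did not overlap and counts remained in every Prr33-gRNA library (log2 fold change -0.42, SE 0.065, edgeR adjusted p = 1.37e-06). The Prr33 locus overlaps that of Tnnt3, which lies on the opposite strand. Tnnt3 was at 1657, 1767 and 1565 CPM in Ctrl-gRNA and 1073, 1053 and 947 CPM in Prr33-gRNA. Exon overlap was not examined for Prr33, and whether some of its counts come from Tnnt3 was not tested. Of 11 myoblast and myotube markers 9 were lower and 2, Myf5 and Ckm, were higher, and their summed level was 31619 to 32182 CPM in Ctrl-gRNA and 19189.8 to 19981 CPM in Prr33-gRNA. Markers of endothelial cells and adipocytes were at or near 0, those of leukocytes summed to less than 2 CPM in any library, and of 7 tested fibroblast markers 6 were lower and 1, Col1a2, was higher. Beside the myoblast and fibroblast counts, 26.6% of all tested genes were lower and 25.5% higher. Summed over the list, the fibroblast markers were at 1740.1 to 1875 CPM in Ctrl-gRNA and 829.5 to 897 CPM in Prr33-gRNA, with Lum and Tcf21 at 0 counts. Most of the Ctrl-gRNA sum lay in Col3a1 and Ly6a. Mean CPM in Ctrl-gRNA and Prr33-gRNA was 1116 and 796 for Col3a1, and 464 and 4.75 for Ly6a. The part that these shifts in differentiation markers play in the results below was not tested. In such bulk samples, fewer cells of a type and less RNA per cell cannot be told apart.

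Of the 41 genes, 37 passed the filter on low counts; 23 of these were lower and 7 higher in Prr33-gRNA, and 7 did not pass the test. Over all tested genes 26.6% were called lower, 25.5% higher and 52.1% either way. The median log2 fold change of the 37 was -0.21, against -0.0023 over all tested genes. The CPM ranges of the groups did not overlap for 28 of the 37, with 21 lower and 7 higher, where 57.9% of all tested genes did not overlap (29.3% lower and 28.6% higher). With library size alone as the scaling, 17 were lower and 7 higher, and the background became 21.2% lower and 34.1% higher. Most changes were small: 21 of the 30 called genes had an absolute log2 fold change below 0.5, 6 lay between 0.5 and 1, and only Pfkfb3, Pfkp and Pfkl passed 1. None of the 41 lies on chromosome 14, where 397 of 472 tested genes were lower.

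**Figure D1:**
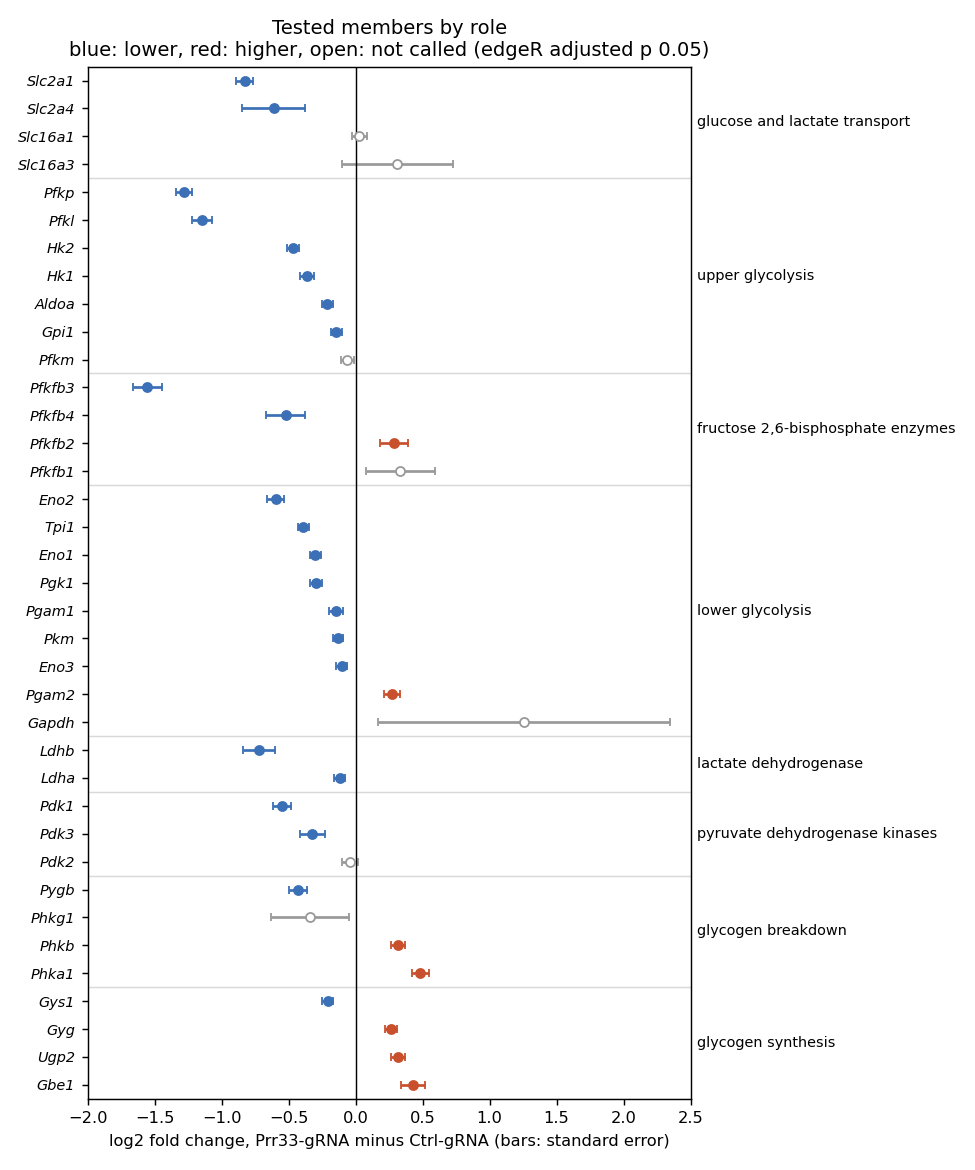
Log2 fold change of each tested gene (Prr33-gRNA minus Ctrl-gRNA, horizontal axis; bars are standard errors from the edgeR fit), grouped by role; blue is lower, red is higher and open circles did not pass the test. The largest falls were those of Pfkfb3, Pfkp and Pfkl, 5 of the 7 rises were genes of glycogen metabolism, and Gapdh has a standard error of 1.09.

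Promoters of the genes were examined because hypoxia-inducible factor (HIF) and muscle basic helix-loop-helix factors are textbook regulators of these genes. The motifs were ACGTG, the core of the HIF response element, and CANNTG, the E-box; both were searched on both strands, and the 2 overlap wherever CACGTG occurs. RefSeq windows on GRCm38.p6 matched 39 of the 41 genes with 59 windows in all (Slc2a3 and Slc2a4 had none). In the 250 bases before the start, ACGTG occurred in 22 of the 59 windows (37.3%), against 16.6% of 32841 windows of all genes. CANNTG occurred in 39 of the 59 (66.1%), against 66.2%. Windows of a gene can overlap and hold the same site. Counted by gene, ACGTG occurred in 18 of 39 (46.2%), against 18.5% of 27018 genes. By the same count CANNTG occurred in 26 of 39 (66.7%), against 69.3%. Median GC content of the windows was 60.3% for these genes and 52.7% for all. The following 250-base stretches, written 5′ to 3′ on the gene's strand, show genes whose transcripts fell and whose windows hold ACGTG, and lastly Pgam2, whose transcript rose; capitals mark ACGTG or its reverse complement in Hk2, Pfkfb3, Pgk1 and Ldha, and CANNTG in Pgam2.
Hk2, chr6:82774455-82774704, minus strand: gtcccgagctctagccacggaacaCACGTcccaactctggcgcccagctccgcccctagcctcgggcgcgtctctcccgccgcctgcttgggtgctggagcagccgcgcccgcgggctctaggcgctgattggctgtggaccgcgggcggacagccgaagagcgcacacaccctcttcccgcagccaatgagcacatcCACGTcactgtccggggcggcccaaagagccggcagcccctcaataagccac
Pfkfb3, chr2:11502091-11502340, minus strand: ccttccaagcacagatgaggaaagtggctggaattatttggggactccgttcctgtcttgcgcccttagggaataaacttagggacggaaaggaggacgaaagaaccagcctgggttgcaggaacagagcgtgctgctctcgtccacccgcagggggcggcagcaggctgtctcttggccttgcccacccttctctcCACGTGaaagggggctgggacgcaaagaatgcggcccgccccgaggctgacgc
Pgk1, chrX:106186850-106187099, plus strand: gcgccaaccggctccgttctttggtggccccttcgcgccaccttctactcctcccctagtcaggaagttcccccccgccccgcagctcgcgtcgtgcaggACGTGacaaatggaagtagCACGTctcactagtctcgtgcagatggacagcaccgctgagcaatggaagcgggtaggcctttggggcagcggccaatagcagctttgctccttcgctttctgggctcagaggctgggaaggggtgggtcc
Ldha, chr7:46845554-46845803, plus strand: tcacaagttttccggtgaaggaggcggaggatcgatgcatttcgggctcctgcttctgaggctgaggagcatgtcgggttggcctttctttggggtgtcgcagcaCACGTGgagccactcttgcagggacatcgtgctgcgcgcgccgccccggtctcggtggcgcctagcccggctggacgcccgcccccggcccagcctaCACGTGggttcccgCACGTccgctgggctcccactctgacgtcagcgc
Pgam2, chr11:5803797-5804046, minus strand: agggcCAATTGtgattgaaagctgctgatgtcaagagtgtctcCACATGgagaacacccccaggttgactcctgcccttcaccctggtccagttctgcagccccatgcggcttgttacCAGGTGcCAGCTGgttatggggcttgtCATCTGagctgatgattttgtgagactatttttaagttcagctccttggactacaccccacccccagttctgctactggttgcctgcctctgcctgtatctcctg
The Ldha window held the most matches, 5, since each of its CACGTG sites counts on both strands, yet Ldha fell by 0.12 on the log2 scale. The windows of Pfkl and Pfkp, which fell far more, held no ACGTG. It did occur before Pfkfb2 and Ugp2, whose transcripts rose, and before Pfkm, Pdk2 and Slc16a1, which were not called. CANNTG was left unmarked in the stretches of the genes that fell, although it also occurs there, for instance in Pgk1 and Ldha. All these matches are a description of the letters in these windows, and binding was not measured.

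Of the 4 tested genes of glucose entry and lactate export, 2 glucose transporter genes fell and neither lactate carrier gene was called. Over all tested genes 26.6% were lower and 25.5% higher. Slc2a1 (GLUT1, the widely expressed glucose transporter, chr4:119108711-119137983, plus strand, mm10), was at 71.7, 67.4 and 67.4 CPM in Ctrl-gRNA and 38.3, 38.5 and 39.4 CPM in Prr33-gRNA. All Prr33-gRNA libraries lay far below all controls, a 1.78-fold fall (log2 fold change -0.83, SE 0.062, edgeR adjusted p = 1.29e-13). Slc2a4, which encodes the insulin-responsive transporter GLUT4 of mature muscle, was low, at 3.78, 3.88 and 3.69 CPM in Ctrl-gRNA and 1.74, 2.82 and 2.85 CPM in Prr33-gRNA. It was called lower (-0.61, SE 0.23, edgeR adjusted p = 0.0279), but the call was lost in DESeq2, under library size alone, and without Ctrl-gRNA replicate 1, Ctrl-gRNA replicate 2 or Prr33-gRNA replicate 1. The lactate carrier gene Slc16a1 (MCT1) was not called, at 60.9, 60.9 and 62.1 CPM against 64.3, 61.5 and 61.6 CPM; its log2 fold change of 0.027 had an interval of 2 SE on either side from -0.089 to 0.14 (edgeR adjusted p = 0.727). Slc16a3 (MCT4), the lactate exporter of glycolytic fibres, stayed near 1 CPM and was not called (0.31, SE 0.41, edgeR adjusted p = 0.560), with its sign set by Prr33-gRNA replicate 1 (-0.063 without it). Slc2a3 (GLUT3) had at most 0.182 CPM in any library and was not tested.

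In upper glycolysis, from glucose to the triose phosphates, 6 of 7 tested genes fell, where 26.6% of all tested genes were lower. Both hexokinase genes, whose products trap glucose as glucose 6-phosphate, were lower. Hk2, the form enriched in muscle, was at 206, 194 and 185 CPM in Ctrl-gRNA and 139, 145 and 139.6 CPM in Prr33-gRNA (-0.47, SE 0.048, edgeR adjusted p = 3.71e-10). Hk1, the widely expressed form, was at 148, 138 and 129.6 CPM and 114, 108 and 102 CPM (-0.36, SE 0.054, edgeR adjusted p = 8.40e-07). In each case the highest Prr33-gRNA library lay below the lowest control. Gpi1, the isomerase of the next step, fell slightly (-0.14, SE 0.040, edgeR adjusted p = 0.00252), a call lost under library size alone. Aldoa, the muscle aldolase and one of the most abundant transcripts of the pathway, was at 1931, 1914 and 1813 CPM in Ctrl-gRNA and 1661, 1690.3 and 1533 CPM in Prr33-gRNA (-0.21, SE 0.042, edgeR adjusted p = 5.65e-05), so even its highest Prr33-gRNA library stayed below the controls. Aldoc, the brain-enriched aldolase, had at most 0.489 CPM and was not tested.

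The 3 phosphofructokinase genes, which encode the subunits of the main control point of glycolysis, separated. Pfkp, the platelet-type subunit (chr13:6579768-6648777, minus strand, mm10), was at 97.5, 92.6 and 89.5 CPM in Ctrl-gRNA and 38.6, 36.4 and 39.8 CPM in Prr33-gRNA, a 2.44-fold fall (-1.28, SE 0.060, edgeR adjusted p = 4.52e-19). Pfkl, the liver-type subunit (chr10:77986947-78010083, minus strand, mm10), was at 84.03, 71.2 and 68.5 CPM and 31.2, 36.5 and 33.3 CPM, a 2.22-fold fall (-1.15, SE 0.075, edgeR adjusted p = 1.36e-13). For both, every Prr33-gRNA library had less than every control by a wide margin. Pfkm, the muscle-type subunit, was at 343, 353 and 321 CPM and 344, 325 and 305 CPM, and here the groups overlapped. Its log2 fold change was -0.063 with an interval of 2 SE on either side from -0.16 to 0.030 (edgeR adjusted p = 0.269), and it was 0.026 under library size alone.

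The PFKFB enzymes make and remove fructose 2,6-bisphosphate, the strongest activator of phosphofructokinase, and their genes moved apart. Pfkfb3, the inducible form with high kinase activity (chr2:11471433-11554077, minus strand, mm10), was at 22.5, 22.5 and 21.2 CPM in Ctrl-gRNA and 7.17, 7.74 and 7.59 CPM in Prr33-gRNA. This 2.94-fold fall was the largest among the 37 tested genes (-1.56, SE 0.11, edgeR adjusted p = 3.23e-14). Pfkfb4, also known as hypoxia-responsive, was at 8.97, 9.33 and 8.33 CPM and 5.87, 6.52 and 6.15 CPM (-0.52, SE 0.15, edgeR adjusted p = 0.00313). Pfkfb2, the heart form, was higher at 17.3, 16.5 and 17.7 CPM against 13.4, 14.9 and 14.04 CPM in Ctrl-gRNA (0.28, SE 0.10, edgeR adjusted p = 0.0209). The groups did not overlap for Pfkfb2, yet the call was lost in DESeq2 and without Ctrl-gRNA replicate 1 or Prr33-gRNA replicate 3. Pfkfb1, the liver and muscle form, was below 4 CPM in every library and was not called (0.33, SE 0.26, edgeR adjusted p = 0.288).

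Lower glycolysis, from triose phosphate isomerase to pyruvate kinase, had 7 of 9 genes lower and 1 higher. Over all tested genes 26.6% were lower and 25.5% higher. Eno2, the enolase named for neurons, was at 70.7, 65.1 and 64.05 CPM in Ctrl-gRNA and 43.6, 43.00 and 45.5 CPM in Prr33-gRNA (-0.60, SE 0.062, edgeR adjusted p = 5.25e-10). Tpi1, which interconverts the triose phosphates, was at 779, 756 and 761 CPM and 584, 599 and 567 CPM (-0.39, SE 0.040, edgeR adjusted p = 3.22e-10). Pgk1, the first ATP-yielding enzyme of the pathway, was at 666, 639 and 629 CPM and 528, 557 and 488 CPM (-0.30, SE 0.045, edgeR adjusted p = 9.02e-07). The groups of these 3 genes were separate, and the falls were far smaller than those of Pfkp or Pfkfb3. Pkm, pyruvate kinase, had the most counts of the 41 genes and fell slightly, from 2413, 2319 and 2334 CPM to 2138, 2244 and 2062 CPM (-0.13, SE 0.040, edgeR adjusted p = 0.00515). Its call was lost under library size alone and without Prr33-gRNA replicate 3, and 15.3% of its exonic bases are shared with another annotated transcript on the same strand, Gm49759.

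Phosphoglycerate mutase and enolase each have a muscle isoform beside a widely expressed one. Pgam2, the muscle mutase, rose from 45.3, 46.9 and 47.3 CPM to 58.2, 56.9 and 53.3 CPM (0.27, SE 0.063, edgeR adjusted p = 4.44e-04) and was the one gene of lower glycolysis called higher. Pgam1, the widely expressed mutase, was at 182, 167 and 171 CPM and 144, 168 and 157 CPM. Its groups overlapped, and its fall (-0.15, SE 0.052, edgeR adjusted p = 0.0179) lost its call in DESeq2, on either FPKM scale, under library size alone and without Ctrl-gRNA replicate 1 or Prr33-gRNA replicate 1. Eno3, the muscle enolase, was at 1164, 1140.2 and 1079 CPM and 1065, 1089.8 and 995 CPM, again with overlap. Its call as lower (-0.10, SE 0.042, edgeR adjusted p = 0.0380) was lost in 9 alternatives, among them DESeq2, both FPKM scales and library size alone.

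**Figure D2:**
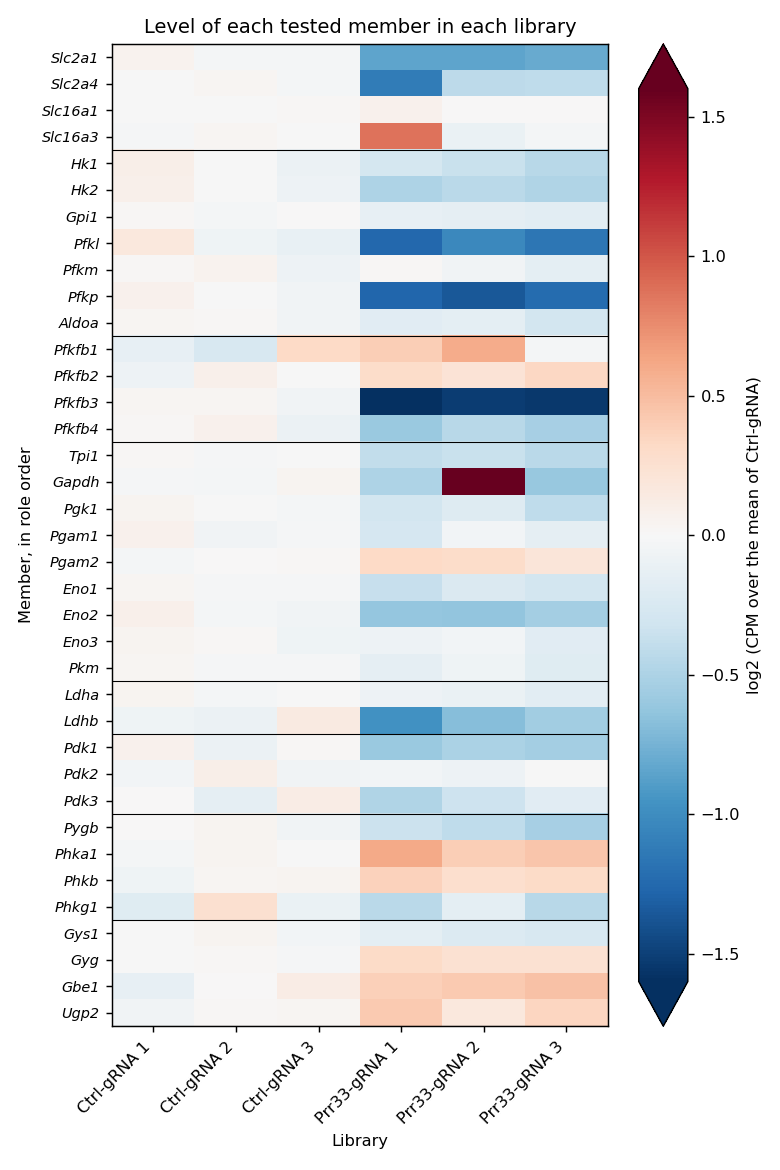
Level of each tested gene in each library as log2 of its CPM over the Ctrl-gRNA mean (colour; the scale ends at 1.6 in both directions), in role order with lines between roles. The 3 Prr33-gRNA columns look alike for most genes; Gapdh in Prr33-gRNA replicate 2 and Slc16a3 in Prr33-gRNA replicate 1 stand apart from the other Prr33-gRNA libraries.

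For Gapdh, near-identical copies held more counts than its own row. This dehydrogenase is often used as a loading reference. Its own row (ENSMUSG00000057666, chr6:125161715-125166467, minus strand, mm10) held 22.7, 22.4 and 23.8 CPM in Ctrl-gRNA and 16.3, 134 and 15.1 CPM in Prr33-gRNA, so that replicate 2 stood far above its 2 partners. The log2 fold change of 1.25 had an SE of 1.09 (edgeR adjusted p = 0.411), and without Prr33-gRNA replicate 2 it was -0.55 (edgeR adjusted p = 4.49e-05). The table also lists 77 genes, mostly pseudogenes, with at least 95% identity to a Gapdh transcript over at least 300 bases. These held 97938 counts over the 6 libraries, against 4222 on Gapdh itself. Nearly all sat on the processed pseudogene Gm13394, at 1019.9, 1006 and 1022 CPM in Ctrl-gRNA and 761, 751 and 689.9 CPM in Prr33-gRNA (-0.47, SE 0.042, edgeR adjusted p = 1.07e-11). Gapdh and its copies summed to 1087, 1073 and 1085 CPM in Ctrl-gRNA and 806, 915 and 733 CPM in Prr33-gRNA, and on this sum the groups did not overlap. A fit with each gene summed with its copies, added after the data were seen, gave -0.40 for this sum (edgeR adjusted p = 1.93e-04). Reads of Gapdh and of Gm13394 cannot be told apart here.

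Eno1, the widely expressed enolase, also has near-identical copies, which held 65283 counts against 86928 on its own row. How reads were divided between Eno1 and its copies was not tested. Its own row was at 911, 875 and 881 CPM in Ctrl-gRNA and 686, 756 and 724 CPM in Prr33-gRNA (-0.30, SE 0.042, edgeR adjusted p = 1.93e-07). The near-identical gene Eno1b was at 331, 318 and 314 CPM and 215, 237 and 218 CPM (-0.52, SE 0.045, edgeR adjusted p = 5.65e-12), and the pseudogene Gm4735 at 331, 324 and 376 CPM and 301, 314 and 319.7 CPM (-0.14, SE 0.048, edgeR adjusted p = 0.0136). All 3 were lower in Prr33-gRNA, and Eno1 summed with its copies had a log2 fold change of -0.31. For the other 7 genes with such copies (Gpi1, Tpi1, Pgk1, Pgam1, Pkm, Ldha and Ldhb) the copies held at most 3811 counts, the value for Pkm, whose own row held 243448.

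**Figure D3:**
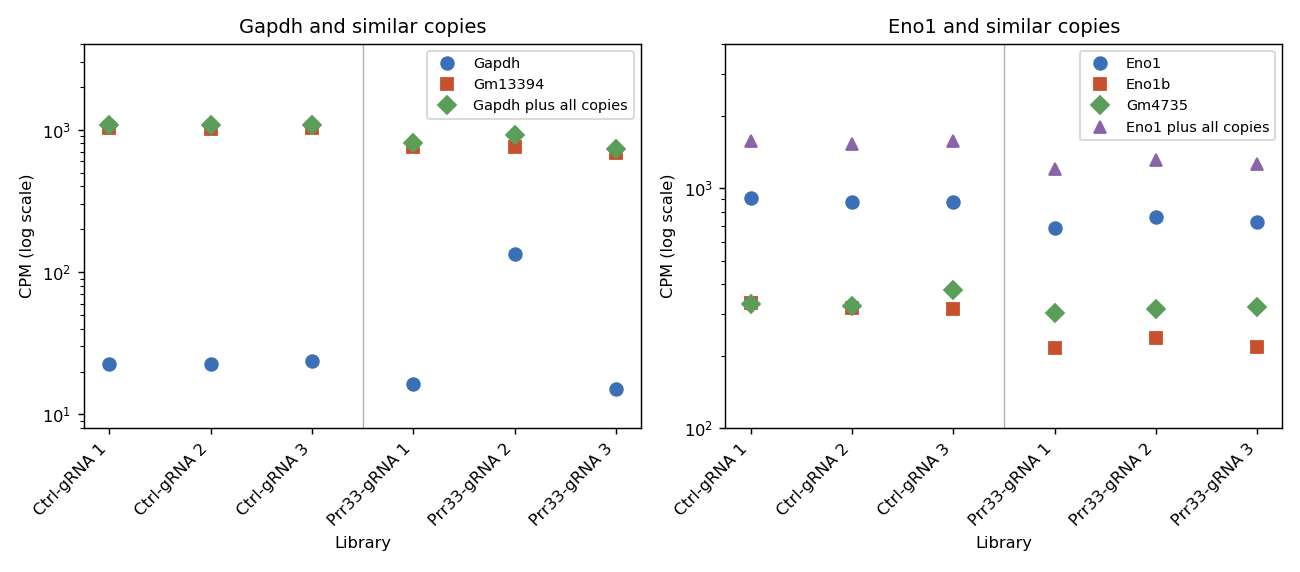
CPM in each library on a log axis for Gapdh (left) and Eno1 (right), their most abundant similar copies, and the sum of the gene and all copies; the vertical line separates Ctrl-gRNA from Prr33-gRNA. Gm13394 lies close to the Gapdh sum in every library, and the Gapdh row of Prr33-gRNA replicate 2 is at 134 CPM while the other 5 are between 15.1 and 23.8 CPM.

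Both lactate dehydrogenase genes fell, where 26.6% of all tested genes were lower. Ldha, the subunit that favours lactate formation, was at 929, 882 and 894 CPM in Ctrl-gRNA and 849, 840.2 and 801 CPM in Prr33-gRNA (-0.12, SE 0.040, edgeR adjusted p = 0.0125), a small fall whose call was lost under library size alone and without Ctrl-gRNA replicate 1 or Prr33-gRNA replicate 3. Ldhb, the heart-type subunit, was much less abundant and fell more, from 16.7, 16.5 and 19.4 CPM to 8.96, 10.9 and 11.9 CPM (-0.72, SE 0.12, edgeR adjusted p = 3.86e-06). The pyruvate dehydrogenase kinases hold back the entry of pyruvate into the mitochondria. Pdk1, a known HIF target, was at 51.4, 45.8 and 49.5 CPM and 32.3, 34.3 and 33.6 CPM (-0.55, SE 0.069, edgeR adjusted p = 2.35e-08). Pdk3 was at 27.7, 24.9 and 29.9 CPM and 19.7, 21.9 and 24.3 CPM (-0.32, SE 0.091, edgeR adjusted p = 0.00322), with the highest Prr33-gRNA library just under the lowest control. Pdk2 was not called, at 63.6, 70.02 and 62.8 CPM and 63.7, 61.8 and 65.00 CPM; its log2 fold change of -0.043 (edgeR adjusted p = 0.572) had an interval of 2 SE on either side from -0.16 to 0.075 and was 0.046 under library size alone.

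Glycogen genes moved in both directions. Among the genes of breakdown, Pygb, the brain-type phosphorylase that cuts glucose from glycogen, was at 48.01, 49.5 and 46.1 CPM in Ctrl-gRNA and 37.6, 36.03 and 33.1 CPM in Prr33-gRNA (-0.43, SE 0.069, edgeR adjusted p = 2.54e-06). The muscle phosphorylase Pygm and the liver form Pygl had 0 counts in all 6 libraries, which allows up to 3 counts in each. Phosphorylase kinase switches phosphorylase on, and 2 of its subunit genes rose, where 25.5% of all tested genes were higher. Phka1, the muscle regulatory subunit, was at 42.4, 44.8 and 43.4 CPM and 66.1, 57.1 and 59.3 CPM (0.48, SE 0.065, edgeR adjusted p = 1.30e-07). Phkb, the beta subunit, was at 98.5, 106 and 106 CPM and 133, 125 and 128 CPM (0.31, SE 0.051, edgeR adjusted p = 2.90e-06). In both, the lowest Prr33-gRNA library lay above the highest control. Phkg1, the catalytic subunit of muscle, was below 3 CPM throughout and was not called (-0.34, SE 0.29, edgeR adjusted p = 0.349).

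Of the 4 genes of glycogen synthesis 3 rose and the synthase itself fell, where 25.5% of all tested genes were higher and 26.6% lower. Ugp2 makes the UDP-glucose that feeds the chain and was at 152, 160.2 and 162 CPM in Ctrl-gRNA and 211, 178 and 201 CPM in Prr33-gRNA (0.32, SE 0.053, edgeR adjusted p = 7.14e-06). Gyg, glycogenin, the protein primer of each particle, was at 171, 176 and 171 CPM and 214, 204 and 204 CPM (0.26, SE 0.045, edgeR adjusted p = 6.47e-06). Gbe1, the branching enzyme, was at 17.8, 19.6 and 21.3 CPM and 25.6, 26.3 and 26.98 CPM (0.43, SE 0.088, edgeR adjusted p = 1.18e-04). For these 3 genes every Prr33-gRNA library was above every control. Gys1, the muscle glycogen synthase, was at 404, 417 and 395 CPM and 363, 348 and 341 CPM (-0.21, SE 0.042, edgeR adjusted p = 8.43e-05), with all Prr33-gRNA libraries below the controls. Thus 5 of the 7 higher genes were glycogen genes, and the other two were Pfkfb2 and Pgam2.

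To compare levels between genes, the deposited FPKM values were used, since they are per length. The length used is the total of a gene's annotated exonic bases, 1739 for Eno3 and 13401 for Pfkp. It can exceed the length of the transcript that is made, so the order below also depends on annotation. Each value is that of the gene's own row, so Gapdh could not be placed in the order and Eno1 is given without its copies. Among the other genes in Ctrl-gRNA the most abundant transcripts per length were Eno3 (644 ± 23.2 FPKM, SD, n = 3) and Aldoa (644 ± 19.98 FPKM, SD, n = 3), which did not differ beyond their spread, followed by Pkm at 468 ± 9.22 FPKM (SD, n = 3). Pgk1 (286 ± 7.75), Tpi1 (276 ± 3.82) and Ldha (271 ± 6.83 FPKM) formed the next tier, then Eno1 (164 ± 3.33 FPKM), Gpi1 (103 ± 1.96) and Pfkm (101 ± 4.60 FPKM). The entry steps were lower still, with Hk2 at 32.5 ± 1.73 FPKM and Slc2a1 at 19.5 ± 0.651 FPKM. The PFKFB genes and Slc2a4 were below 3 FPKM. In Prr33-gRNA the levels at the top were 558 ± 30.00 FPKM for Aldoa, 603 ± 29.6 FPKM for Eno3 and 429 ± 19.2 FPKM for Pkm (SD, n = 3), while Slc2a1 was at 11.02 ± 0.146 FPKM. All of the 41 genes together took 1.11% to 1.16% of the counts in the controls and 1.02% to 1.11% in the Prr33-gRNA group. Without the Gapdh row the ranges were 1.11% to 1.16% and 1.02% to 1.10%. Counts on similar copies are left out of these values.

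Isoform use was described by the share of each gene in the summed FPKM of its family, in 11 families. With 3 libraries against 3 the exact permutation test cannot go below p = 0.10, and no share passed after adjustment over the 26 shares tested (two-sided). In 9 of the 11 families the summed FPKM of every Prr33-gRNA library was below that of every control. The sums of the mutases and monocarboxylate transporters overlapped. No test was run on the sums, and they were not rescaled to library size alone. The pyruvate dehydrogenase kinase sum left out Pdk4, whose transcript rose. Among all single tested genes 29.3% were lower on CPM without overlap. Summed phosphofructokinase FPKM was 119 ± 5.33 in the controls and 105 ± 5.82 in the Prr33-gRNA group (SD, n = 3), a change of -11.7%, although Pfkl and Pfkp each fell more than 2-fold. In that sum Pfkp was divided by 13401 bases and Pfkm by 3340, which gives Pfkp little weight. The FPKM of the glucose transporter genes Slc2a1, Slc2a3 and Slc2a4, a sum that leaves out Slc2a6, was 20.6 ± 0.638 and 11.7 ± 0.294 (SD, n = 3), a change of -43.0%.

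Pfkm took 83.8, 85.7 and 85.02% of the phosphofructokinase FPKM in the controls and 93.2, 92.2 and 91.98% after Prr33 knockdown, a mean of 84.8% ± 0.982 against 92.5% ± 0.619 (SD, n = 3, exact p = 0.10). The muscle-type subunit thus made up most of the family in either group and more of it in each Prr33-gRNA library. Among the PFKFB genes the leading gene changed. Pfkfb3 held 40.3% ± 1.09 of the family FPKM in the controls and 18.6% ± 0.550 in the Prr33-gRNA group, whereas Pfkfb2 went from 26.8% ± 0.991 to 44.4% ± 2.60 (SD, n = 3, exact p = 0.10 for each). Pgam2 held 37.00, 39.9 and 39.5% of mutase FPKM in the controls and 48.8, 44.4 and 44.5% in the Prr33-gRNA group (exact p = 0.10). The share of Eno3 among the enolases was 78.3% ± 0.516 and 80.8% ± 0.936, and that of Ldha among the lactate dehydrogenases 96.1% ± 0.382 and 97.4% ± 0.438 (SD, n = 3, exact p = 0.10 for each). Pdk2 went from 54.9% ± 3.32 to 60.99% ± 1.75 of the summed FPKM of Pdk1, Pdk2 and Pdk3 (SD, n = 3, exact p = 0.10). That sum left out Pdk4, whose transcript rose, and the share with Pdk4 included was not computed. The hexokinase split hardly moved, with Hk2 at 66.8% ± 0.261 and 65.2% ± 1.38 (SD, n = 3, exact p = 0.10). Of the 11 genes with the highest FPKM of their family over all libraries, 5 had a larger share in every Prr33-gRNA library than in any control, 2 (Hk2 and Pgam1) a smaller one, and 4 (Aldoa, Slc2a1, Slc16a1 and Pygb) overlapped. The 5 include Pdk2, whose share was taken without Pdk4. The share of Pygb was fixed at 100%, since Pygm and Pygl had 0 counts, and that of Aldoa was near 100% throughout. The Eno1 share leaves out the reads on Eno1b and Gm4735. Shares on CPM, which is not divided by length, differed in level and moved the same way. Their means in Ctrl-gRNA and Prr33-gRNA were 66.9% and 81.8% for Pfkm, 54.1% and 57.8% for Eno3, and 21.2% and 26.5% for Pgam2.

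**Figure D4:**
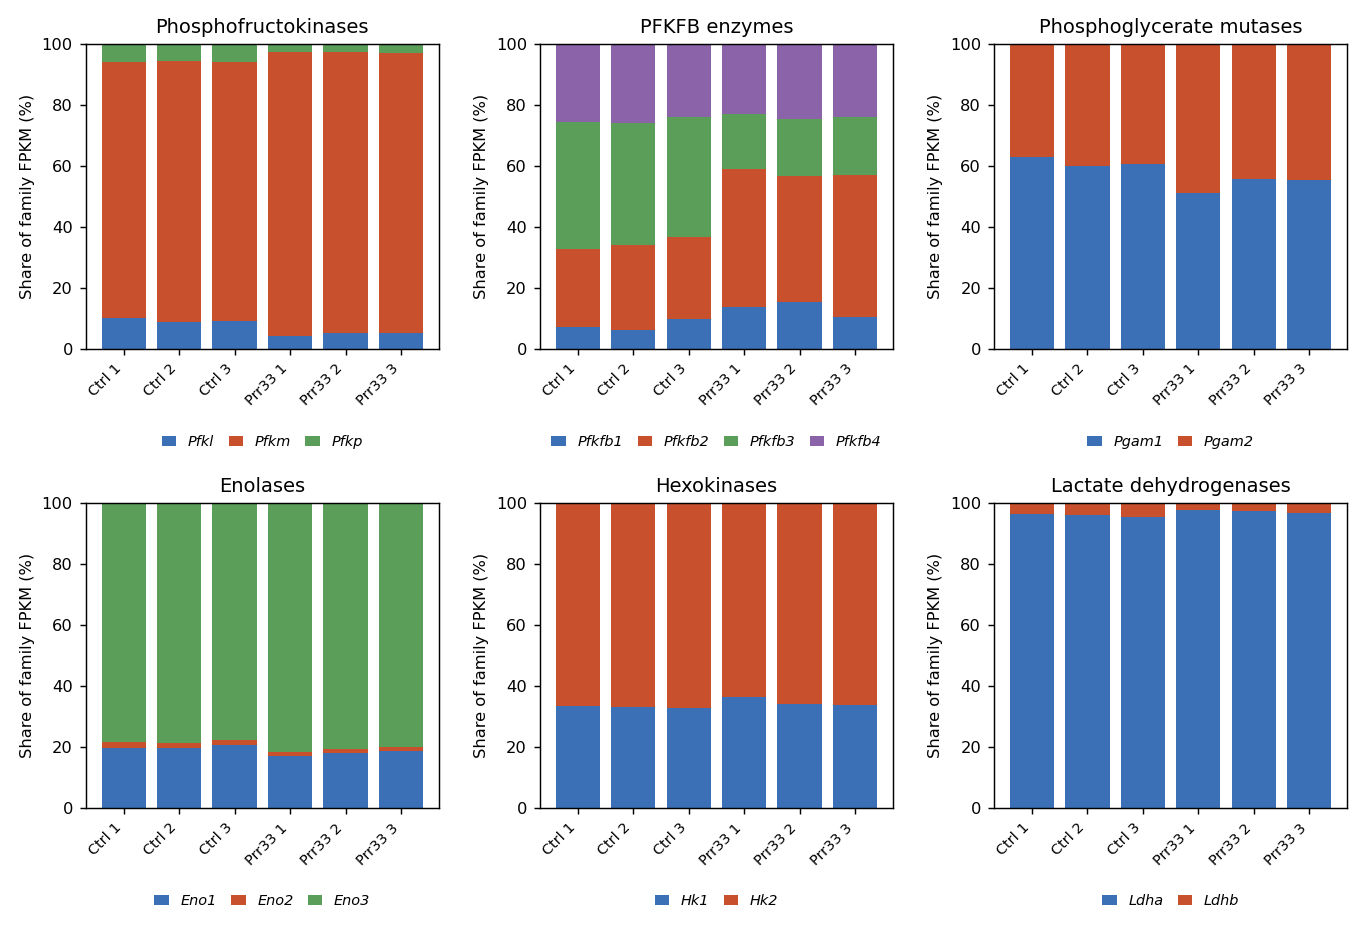
Share of each gene in the summed FPKM of its family (vertical axis, percent) in each library, for 6 families; each bar is 1 library. In the Prr33-gRNA bars the share of Pfkfb3 is smaller and that of Pfkfb2 larger, Pfkm takes a larger share than in the controls, and the hexokinase bars differ little.

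Surrounding gene lists moved in both directions. Of 9 tested genes of further glycolysis and hexose transport, 2 were lower and 2 higher (median log2 fold change 0.037), where 25.5% of all tested genes were higher and 26.6% lower. Slc2a6 (GLUT6), a glucose transporter of internal membranes, was at 147, 141 and 133 CPM in Ctrl-gRNA and 32.1, 31.4 and 30.1 CPM in Prr33-gRNA. This 4.50-fold fall was larger than that of any of the 37 genes (-2.17, SE 0.059, edgeR adjusted p = 5.48e-26). Pgp, which removes a toxic side product of pyruvate kinase, rose (0.31, SE 0.056, edgeR adjusted p = 2.09e-05). Tigar, a fructose 2,6-bisphosphatase, rose (0.34, SE 0.14, edgeR adjusted p = 0.0367), a call lost in DESeq2, limma-voom, both FPKM scales and without any one of the 3 Ctrl-gRNA libraries or Prr33-gRNA replicate 1. Without the last, the log2 fold change of Tigar was 0.16. Khk, fructokinase, was below 5 CPM and fell (-0.77, SE 0.25, edgeR adjusted p = 0.0105), a call lost without Ctrl-gRNA replicate 1 (-0.56) or Prr33-gRNA replicate 2 (-0.55).

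Of the genes that handle pyruvate and lactate 9 of 19 tested were higher and 2 lower (median 0.14), where 25.5% of all tested genes were higher and 26.6% lower. Gpt2, which exchanges pyruvate and alanine in mitochondria, rose from 97.7, 112 and 98.4 CPM to 212, 199 and 199 CPM (0.99, SE 0.052, edgeR adjusted p = 2.43e-17). Pcx, pyruvate carboxylase, was at 30.2, 26.6 and 29.02 CPM and 56.2, 51.3 and 47.7 CPM (0.85, SE 0.074, edgeR adjusted p = 6.16e-12). Me1, which forms pyruvate from malate, rose too (0.60, SE 0.054, edgeR adjusted p = 1.33e-11). Pdk4, the pyruvate dehydrogenase kinase induced by fasting, was picked out after its values were seen because it went against Pdk1 and Pdk3, from 5.72, 6.78 and 4.28 CPM to 14.9, 13.4 and 11.8 CPM (1.25, SE 0.15, edgeR adjusted p = 1.38e-08). The 2 lower genes were Bsg, the chaperone of the lactate carriers (-0.37, SE 0.043, edgeR adjusted p = 5.42e-09), and Pdhb, a pyruvate dehydrogenase subunit on chromosome 14 (-0.87, SE 0.054, edgeR adjusted p = 3.33e-15).

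Among further glycogen genes 5 of 15 tested were higher and 1 lower (median 0.067), against 25.5% higher and 26.6% lower over all tested genes. Ppp1r3a, which brings a phosphatase to glycogen in muscle, was at 9.94, 10.1 and 13.3 CPM in Ctrl-gRNA and 19.3, 17.3 and 22.4 CPM in Prr33-gRNA (0.83, SE 0.12, edgeR adjusted p = 6.67e-07). Pgm2l1, a glucose 1,6-bisphosphate synthase (0.93, SE 0.18, edgeR adjusted p = 3.36e-05), and Gsk3b, the kinase that inhibits glycogen synthase (0.17, SE 0.045, edgeR adjusted p = 0.00182), also rose. Stbd1, which tethers glycogen for its breakdown in lysosomes, fell (-0.35, SE 0.065, edgeR adjusted p = 2.64e-05).

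Of HIF pathway genes and HIF targets outside glycolysis 11 of 22 tested were lower and 4 higher (median -0.19), against 26.6% lower and 25.5% higher over all tested genes. P4ha1, a collagen prolyl hydroxylase, was at 254, 243 and 237 CPM in Ctrl-gRNA and 137, 131 and 126 CPM in Prr33-gRNA (-0.90, SE 0.047, edgeR adjusted p = 1.06e-17). Egln3, an oxygen sensor, was at 101, 98.97 and 103 CPM and 48.8, 51.8 and 48.2 CPM (-1.02, SE 0.056, edgeR adjusted p = 2.83e-17). Vegfa, the vascular growth factor, fell (-0.67, SE 0.052, edgeR adjusted p = 4.26e-13), as did Ero1a, an oxidase of the endoplasmic reticulum on chromosome 14 (-1.04, SE 0.087, edgeR adjusted p = 3.24e-12). Ak4, a mitochondrial adenylate kinase, went the other way but from a very low level, 0.594, 0.303 and 0.119 CPM to 3.53, 2.82 and 3.55 CPM (3.23, SE 0.37, edgeR adjusted p = 5.26e-09). The transcript of Hif1a itself, picked out after its values were seen, was not called (0.0067, SE 0.052, edgeR adjusted p = 0.928). HIF activity was not measured, and its part in these values was not tested.

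**Figure D5:**
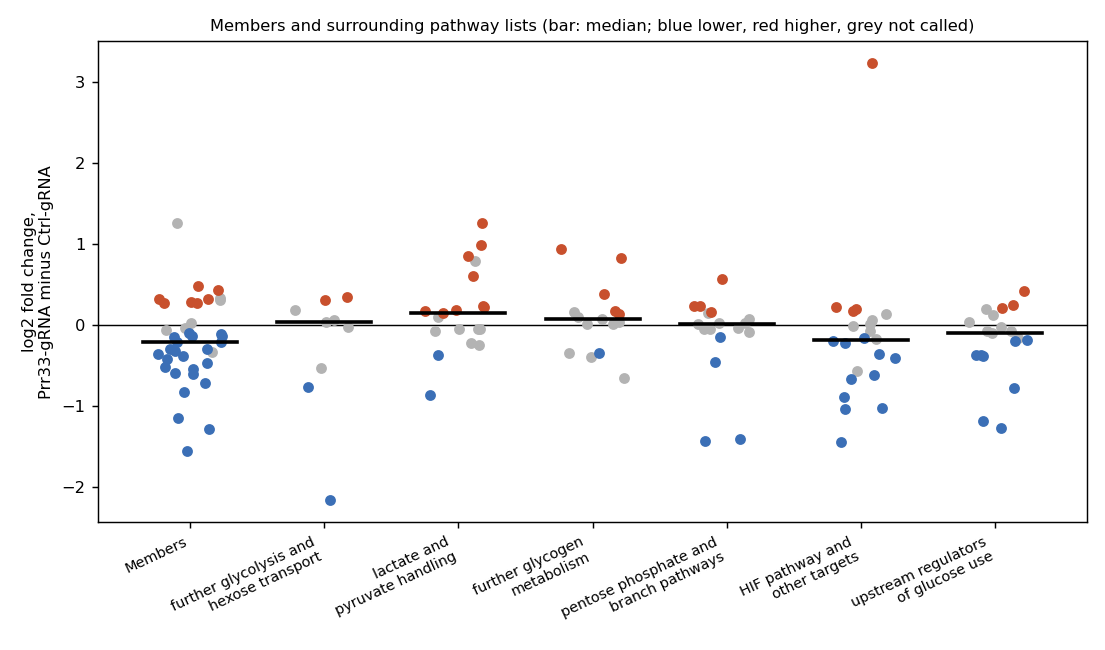
Log2 fold change (vertical axis, Prr33-gRNA minus Ctrl-gRNA) of every tested gene among the 41 and in 6 surrounding gene lists; horizontal bars are medians, blue is lower, red is higher and grey did not pass the test. The median of the 41-gene set is -0.21 and that of the HIF list -0.19, while the lactate and pyruvate list lies at 0.14.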

How the data were processed

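The authors deposited raw read counts for each gene together with FPKM values. These are scaled by gene length and by library totals that lie nearer the TMM-scaled totals than the raw ones. Fits on FPKM are therefore no check independent of such scaling. Per the submitters' processing notes, CASAVA, HISAT2 2.0.5 and featureCounts 1.5.0-p3 were used with the mm10 build; strand setting and annotation release are not given there, and reads of overlapping genes cannot be told apart by strand. The coordinates of all 41 genes matched GENCODE M21, and 7 have more than 5% of their exonic bases in another annotated gene (Gpi1, Gys1, Pfkfb2, Pfkm, Pfkp, Phkg1 and Pkm).

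Tests used the edgeR 4.0.16 quasi-likelihood F test in R 4.3.3 (robust, filterByExpr, TMM, 6 libraries, no covariate), adjusted by Benjamini-Hochberg over 14651 genes with a threshold of 0.05. The SE is the absolute log2 fold change divided by the square root of F. The table's 55804 rows include 333 without an Ensembl identifier. On simulated counts (14416 genes tested, Prr33-gRNA minus Ctrl-gRNA) 22, 33, 42 and 44 of 50 genes changed by 1.25, 1.5, 2 and 4-fold were recovered, with 13 false calls. Only those genes were changed in the simulation, whereas 52.1% of tested genes were called in the data. Its recovery and false calls therefore describe that setting and not this fit. No 2 libraries of a group agreed within sampling noise (chi-square per gene 2.89 to 5.68). Floors cover counting error alone, because reads lack molecular identifiers and are not independent.

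Similar copies were found with BLAST 2.17.0 (at least 95% identity over 300 bases of GENCODE M21 transcripts). Isoform shares used two-sided exact permutation tests. Promoter windows came from RefSeq (GRCm38.p6). The genes, lists and tests were chosen with earlier results of these data known. Values in every library are given for up to 4 called genes per role with the largest change and at least 5 CPM, and for the gene of each family with the highest FPKM; up to 5 genes with the lowest adjusted p come from each surrounding list. Some genes that this rule names are not reported here. Other genes of the 41 are named throughout. Alternatives were log2(FPKM + 0.1) or log2(FPKM + 1) in limma 3.58.1, limma-voom, DESeq2 1.42.0, RLE size factors, library size alone, protein-coding genes only, no filter, a filter of 1 CPM in at least 3 libraries, a replicate block, chromosome 14 left out, each library left out and, added after the data were seen, counts summed with similar copies. A comparison of protein sequences was planned and not run.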

Additional observations from a re-analysis of the deposited data

How the results depend on the processing

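Over 18 alternatives, 17 to 24 of the 41 genes were called lower and 6 or 7 higher. The lowest count of falls came from library size alone, which shifted the median of all genes by 0.089 (log2), and the highest from leaving out Prr33-gRNA replicate 2 and from counts summed with similar copies, where Gapdh joined the falls. Leaving out single libraries gave 19 to 24 lower and 6 or 7 higher. Of 664 values for the 37 tested genes, 629 kept their direction and side of the threshold, 29 lost the call and 6 changed sign; the 35 values concern 11 genes. Those that changed sign were Slc16a3 (-0.063 without Prr33-gRNA replicate 1), Pfkm (0.026 under library size alone), Gapdh (-0.55 without Prr33-gRNA replicate 2 and -0.40 summed with its copies) and Pdk2 (0.046 under library size alone and 0.0089 without Ctrl-gRNA replicate 2). With single libraries left out, Slc16a3 ran from -0.063 to 0.48, Gapdh from -0.55 to 1.71 and Pdk2 from -0.069 to 0.0089. None of these 4 was called in the reported fit. The share of Slc16a1 among the monocarboxylate transporters, -0.20 points, ran from -0.34 to 0.0474 points with single libraries left out, the last value without Prr33-gRNA replicate 1. In the list of further glycolysis and hexose transport 1 gene was higher in DESeq2, limma-voom, limma on log2(FPKM + 1) and limma on log2(FPKM + 0.1), against 2 as reported, and 1 to 2 were higher and 1 to 2 lower when single libraries were left out. With chromosome 14 left out 1 gene of lactate and pyruvate handling was lower, since Pdhb lies there. Leaving out single libraries gave 1 to 2 lower in further glycogen metabolism, and 6 upstream regulators were higher under library size alone, against 3. Other causes were not tested.

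Replicate numbers are shared between the groups, but the deviations of same-numbered libraries from their group means had correlations of -0.017, -0.00053 and 0.064, which gives no pairing. With a replicate block 23 of the 41 genes were lower and 7 higher, the same genes as without it, and over all genes 3811 were higher and 3975 lower.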

Other observations

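Regulators of glucose use were also uneven: of 19 tested, 8 were lower and 3 higher (median log2 fold change -0.11), where 26.6% of all tested genes were lower and 25.5% higher. Txnip, which restrains glucose uptake and is known to be induced by glucose, was at 121, 115 and 123 CPM in Ctrl-gRNA and 51.1, 56.7 and 49.8 CPM in Prr33-gRNA, with no overlap (-1.19, SE 0.057, edgeR adjusted p = 8.94e-19). Tbc1d4, which holds GLUT4 inside the cell and lies on chromosome 14, fell (-1.27, SE 0.12, edgeR adjusted p = 4.01e-11). The subunits of AMP-activated kinase split: Prkaa2, a catalytic subunit, rose (0.41, SE 0.067, edgeR adjusted p = 3.39e-06), and Prkag3, the regulatory subunit of glycolytic muscle, fell (-0.39, SE 0.052, edgeR adjusted p = 9.72e-08).

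In the pentose phosphate and branch pathways 4 of 17 tested genes were lower and 4 higher (median 0.0050), near the 26.6% lower and 25.5% higher of all tested genes. Tkt, transketolase, on chromosome 14, was at 29.9, 27.9 and 25.8 CPM in Ctrl-gRNA and 9.83, 11.1 and 10.6 CPM in Prr33-gRNA (-1.41, SE 0.10, edgeR adjusted p = 3.20e-14). H6pd, the glucose 6-phosphate dehydrogenase of the endoplasmic reticulum, fell (-0.47, SE 0.067, edgeR adjusted p = 4.24e-07). Gpd2, the mitochondrial arm of the glycerol phosphate shuttle, rose (0.56, SE 0.057, edgeR adjusted p = 3.65e-10), and so did Gfpt1, which opens the hexosamine pathway (0.23, SE 0.051, edgeR adjusted p = 3.32e-04). On chromosome 14 as a whole 397 of 472 tested genes were lower and 11 higher, with a median log2 fold change of -0.88.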
